A study of Mus musculus with 6 samples.

Results

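The genes described here are those of transforming growth factor beta (TGF-beta) signalling, taken as every gene of the expression table whose symbol starts with Tgfb or Smad. There were 7 of them among 498 endogenous genes: the ligand genes Tgfb1 and Tgfb3, the receptor genes Tgfbr1 and Tgfbr2, and the Smad genes Smad2, Smad3 and Smad4. The choice was by symbol and by no threshold on a value, though earlier results of these data were known when it was made. RNA of natural killer (NK) cells from female C57BL/6 mice was counted with a NanoString panel, in which colour-coded probes bind each transcript directly and no amplification step is used. All 6 libraries came from cells grown for 12 days in a conjugate of IL-15 and the IL-15 receptor alpha chain, renewed at 10 ng/mL. In 2 libraries that conjugate was the whole expansion method (IL-15 replicates 1 and 3, numbered as in the sample titles). In 4 libraries the NK cells were also grown with AgN2a-4P, a mouse neuroblastoma feeder line engineered to carry costimulatory ligands, after irradiation with 100 Gy. Of these, 2 carry no treatment in their labels (untreated feeder replicates 2 and 3) and 2 carry anti-TIM-3 antibody, given for 4 h (anti-TIM-3 replicates 1 and 2). An isotype control appears in the protocol text but in no sample label, and if the untreated cells had none, antibody and 4 h incubation cannot be told apart. The age of the mice is not given. Nor is it said that the libraries of a group came from separate mice, and p-values then measure the spread between these libraries alone, which may be technical.

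TGF-beta is a secreted cytokine that restrains the cytotoxicity, cytokine secretion and growth of NK cells. The ligand binds the type II receptor, encoded by Tgfbr2, which then recruits and phosphorylates the type I receptor, encoded by Tgfbr1. The active type I receptor phosphorylates Smad2 and Smad3, and these join Smad4 and enter the nucleus, where the complex acts on transcription together with other factors.

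The libraries held between 299485 and 441185 counts over 518 endogenous and housekeeping genes, and the highest of 8 negative controls stood between 6 and 12 counts. Counts are those recovered from the deposited values. Levels below are normalised counts on the authors' scale, on which the mean log2 value of 20 housekeeping genes was 9.22 in every library. The level of one gene is not set against that of another, since each probe has its own efficiency. The 11 NK cell markers in the table exceeded the highest negative control in every library, and their summed normalised count ran from 69398 to 72541 in the IL-15 libraries, from 86212 to 104341 in the untreated feeder libraries and from 108256 to 119713 in the anti-TIM-3 libraries. In bulk RNA fewer cells of a type and less RNA per cell cannot be told apart.

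Of the 7 genes, Tgfbr1, Smad3 and Smad4 rose after the anti-TIM-3 step in feeder-expanded NK cells, none fell, and 4 did not pass the test. Tgfbr1 was 3.63-fold and Smad3 4.16-fold as high as in untreated feeder libraries, while Smad4 was 1.60-fold as high, a rise that passed on the housekeeping scale alone. The threshold was an adjusted p under 0.05 in limma, a linear model fitted over all 6 libraries, with Benjamini-Hochberg adjustment over 430 tested probes. With the same threshold 31.4% of all tested probes rose and 7.21% fell, so a count of 3 rises among 7 genes does not set the pathway apart. The median log2 fold change of the 7 genes was 0.22, against 0.47 over all tested probes.

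**Figure D1:**
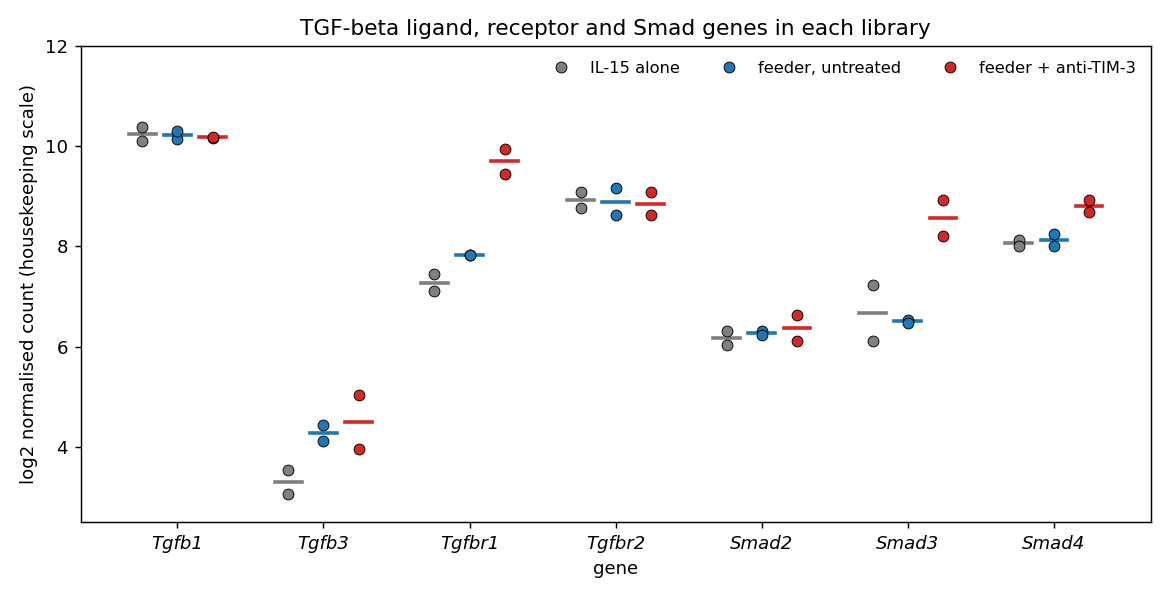
Log2 normalised count (vertical axis) of the 7 genes (horizontal axis) in each of 6 libraries, as points coloured by group, with short lines at the group means. Both anti-TIM-3 libraries stand above the 4 others for Tgfbr1, Smad3 and Smad4, while the groups of Tgfb1, Tgfbr2 and Smad2 overlap.

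Tgfbr1, encoding the kinase receptor that starts the Smad cascade, lies on chromosome 4 from 47353222 to 47414926 (GRCm38.p6). Its normalised count was 138 and 176 in IL-15 replicates 1 and 3, 229 and 229 in untreated feeder replicates 2 and 3, and 699 and 984 in anti-TIM-3 replicates 1 and 2. On the housekeeping scale the groups did not overlap and were ordered from IL-15 alone through untreated feeder, whose libraries nearly coincided, to anti-TIM-3. The upper step of that order, from untreated feeder to anti-TIM-3, was 1.86 ± 0.25 on the log2 scale (standard error of the fit, n = 2 libraries per group) with a limma adjusted p of 0.00830 (95% interval of 1.26 to 2.46). The lower step, from IL-15 alone to untreated feeder, was 0.56 ± 0.25 and did not pass (limma adjusted p = 0.584), so a difference beyond the spread was not shown between these neighbours. On the 4 other scales the lower step was 0.28 to 0.38 and did not pass. By unadjusted p-value Tgfbr1 stood at place 12 of 430 tested probes in the anti-TIM-3 comparison, and by size of rise at place 37. The call was lost without untreated feeder replicate 3, at a log2 fold change that was still 1.86 (limma adjusted p = 0.0680). In that fit 0 of 430 probes passed in limma, with 156 at an unadjusted p under 0.05.

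Smad3, encoding a receptor-activated transcription factor, lies on chromosome 9 from 63646766 to 63757994 on the reverse strand (GRCm38.p6). Its normalised count was 69.3 and 151 in IL-15 replicates 1 and 3, 93.1 and 89.0 in untreated feeder replicates 2 and 3, and 295 and 486 in anti-TIM-3 replicates 1 and 2. Both anti-TIM-3 libraries stood above the 4 others, and the untreated feeder libraries lay between the IL-15 libraries. Between untreated feeder and anti-TIM-3 the log2 fold change was 2.06 ± 0.43 (limma adjusted p = 0.0153, 95% interval of 1.02 to 3.09). Between IL-15 alone and untreated feeder it was -0.17 ± 0.43 (limma adjusted p = 0.957). The IL-15 libraries were 1.12 apart on the log2 scale, against 0.065 for the untreated feeder libraries and 0.72 for the anti-TIM-3 libraries. The call between untreated feeder and anti-TIM-3 ended without either of the untreated feeder libraries, replicate 2 (log2 fold change 2.09, limma adjusted p = 0.0670) or replicate 3 (2.03, 0.0953). It also ended when replicate 2 of the anti-TIM-3 group was left out, at 1.70 (limma adjusted p = 0.0730).

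Markers of other cells were read beside these rises. The summed normalised count of 9 myeloid and dendritic cell markers was 184 to 269 in the IL-15 libraries, 412 to 449 in the untreated feeder libraries and 989 to 1139 in the anti-TIM-3 libraries. That order of groups, seen for Tgfbr1, also held for the sums of NK cell markers and of other innate lymphoid cell markers. All of these sums are on the housekeeping scale, and their order was not tested on the other scales. There the median probe itself moved up by 0.19 (log2) from IL-15 alone to untreated feeder. From untreated feeder to anti-TIM-3 the median probe moved up by 0.47. Among the 9 myeloid and dendritic markers, 6 were tested, of which 3 rose under anti-TIM-3 on the housekeeping scale (Cd74, H2-Aa and Itgax). None fell, and with a trimmed mean of M values (TMM), a scale drawn from all tested probes, H2-Aa alone passed. The others did not pass, with Cd14 at -1.12 ± 0.59, H2-Ab1 at -0.0064 ± 0.56 and Cd68 at 0.75 ± 0.30 (log2). The larger sum was thus not a rise of every marker in it. Cd74 alone was at 118 and 22.2 in untreated feeder replicates 2 and 3. It was at 435 and 460 in anti-TIM-3 replicates 1 and 2. On the housekeeping scale 31.4% of all tested probes rose and 7.21% fell, and with TMM 12.3% rose and 11.6% fell. Other markers of that list stayed low, with Csf1r at 5 to 12 recovered counts, at or below the highest negative control in every library, Cx3cr1 at 6 to 10 and Fcgr1 at 10 to 18. The 7 markers of other innate lymphoid cells summed to 1348 to 1744 in the IL-15 libraries, 1785 to 2234 in the untreated feeder libraries and 2745 to 2851 in the anti-TIM-3 libraries. Of 5 tested, 3 rose under anti-TIM-3 (Gata3, Kit and Cxcr6) and Icos fell, by 1.38 ± 0.30 on the log2 scale. With TMM 2 rose and 1 fell. Cxcr6 alone was at 118 to 225 in the IL-15 libraries, 222 to 226 in the untreated feeder libraries and 1011 to 1135 in the anti-TIM-3 libraries. The T cell marker Cd3d was at 22.5 to 64.4, 188 to 190 and 41.7 to 67.6 in these groups, the 2 B cell markers summed to 25.0 to 43.3 over all libraries, and Pecam1, a marker of platelets and endothelium, was at 944 to 2160, 953 to 1793 and 702 to 794. Under anti-TIM-3 Cd3d fell by 1.83 on the log2 scale, and it passed on 3 of the 4 other scales. Of the ligands that the feeder line carries, Cd86 stood at 6 and 9 recovered counts in IL-15 replicates 1 and 3, 24 and 13 in untreated feeder replicates 2 and 3, and 7 and 6 in anti-TIM-3 replicates 1 and 2. Icam1, another of these ligands, which lymphocytes also express, rose by 2.37 ± 0.41 on the log2 scale. Of the 11 NK cell markers themselves, 5 rose and 2 fell on the housekeeping scale, and 2 rose and 2 fell with TMM, to be read against the same shares of all tested probes. The part of other cells in the levels of Tgfbr1 and Smad3 was not tested.

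The other Smad genes moved less. Smad4, encoding the common partner of the activated Smads, had a normalised count of 279 and 256 in IL-15 replicates 1 and 3, 258 and 305 in untreated feeder replicates 2 and 3, and 413 and 488 in anti-TIM-3 replicates 1 and 2. Its log2 fold change under anti-TIM-3 was 0.68 ± 0.20 (limma adjusted p = 0.0422), or 0.21 relative to the median of all tested probes. No other scale kept that call, and leaving out any single library ended it (limma adjusted p from 0.0551 to 0.200). Smad2, which is activated by the same receptor as Smad3, was at 65.9 and 79.7 in IL-15 replicates 1 and 3, 79.2 and 75.4 in untreated feeder replicates 2 and 3, and 99.1 and 69.5 in anti-TIM-3 replicates 1 and 2. Its groups overlapped, and its log2 fold change of 0.10 ± 0.30 did not pass (limma adjusted p = 0.803, 95% interval of -0.62 to 0.83). Both genes lie on chromosome 18.

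Tgfbr2, encoding the ligand-binding type II receptor, did not pass. Its normalised count was 542 and 435 in IL-15 replicates 1 and 3, 395 and 575 in untreated feeder replicates 2 and 3, and 393 and 540 in anti-TIM-3 replicates 1 and 2. The ranges of the groups overlapped, and the log2 fold change under anti-TIM-3 was -0.048 ± 0.28 (limma adjusted p = 0.894, 95% interval of -0.72 to 0.63). The upper end of that interval lies below the lower end of 1.26 for Tgfbr1.

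Among the ligands, Tgfb1, the main TGF-beta isoform of immune cells, was at 1331 and 1107 in IL-15 replicates 1 and 3, 1136 and 1263 in untreated feeder replicates 2 and 3, and 1155 and 1163 in anti-TIM-3 replicates 1 and 2. The anti-TIM-3 libraries lay inside the range of the others, with a log2 fold change of -0.047 ± 0.18 (limma adjusted p = 0.844, 95% interval of -0.48 to 0.38). Tgfb3, another ligand isoform, was close to background. Its recovered counts were 10 and 16 in IL-15 replicates 1 and 3, and 22 and 14 in untreated feeder replicates 2 and 3. They were 29 and 9 in anti-TIM-3 replicates 1 and 2. In the same order of libraries, the highest negative control was at 11 and 11, 6 and 12, and 7 and 9. Tgfb3 was at 0.22 ± 0.51 on the log2 scale under anti-TIM-3 (limma adjusted p = 0.752), and its size is poorly determined at this depth.

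**Figure D2:**
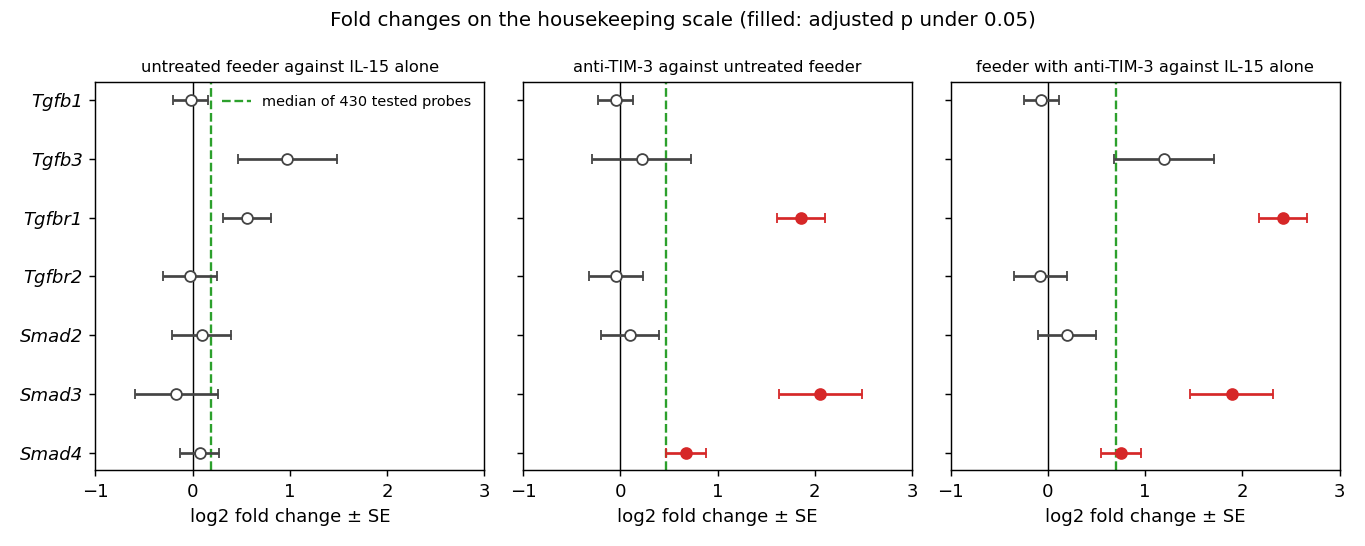
Log2 fold change with its standard error (horizontal axis) of the 7 genes (vertical axis) in 3 comparisons on the housekeeping scale, with filled points for an adjusted p under 0.05 and a dashed line at the median of 430 tested probes. Tgfbr1 and Smad3 lie well to the right of the median in both comparisons with anti-TIM-3, Smad4 lies near it, and no point is filled in the feeder comparison.

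The choice of scale bears on every gene that lay near 0. On the housekeeping scale the median of all tested probes was itself 0.47 under anti-TIM-3, whereas it was -0.056 with TMM, 0.20 with total count, -0.046 with positive controls and -0.025 with median of ratios. The balance of all calls moved with it, from 135 rises and 31 falls to 53 and 50 with TMM, 63 and 37 with total count, 32 and 35 with positive controls, and 54 and 48 with median of ratios. On each of these 4 scales 2 of the 7 genes rose, Tgfbr1 and Smad3, and none fell, beside 12.3% of all tested probes that rose with TMM, 14.7% with total count, 7.44% with positive controls and 12.6% with median of ratios. The log2 fold change of Tgfbr1 was then 1.33 to 1.59 (limma adjusted p from 0.0105 to 0.0429) and that of Smad3 was 1.51 to 1.77 (limma adjusted p from 0.0220 to 0.0423). Tgfb1 and Tgfbr2 were both at -0.51 relative to the median of all tested probes on the housekeeping scale, and with TMM both were at -0.57 and did not pass (limma adjusted p = 0.0683 and 0.117). Smad2 and Tgfb3 were above 0 on the housekeeping scale and below 0 on the 4 others, so no direction is given for them.

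**Figure D3:**
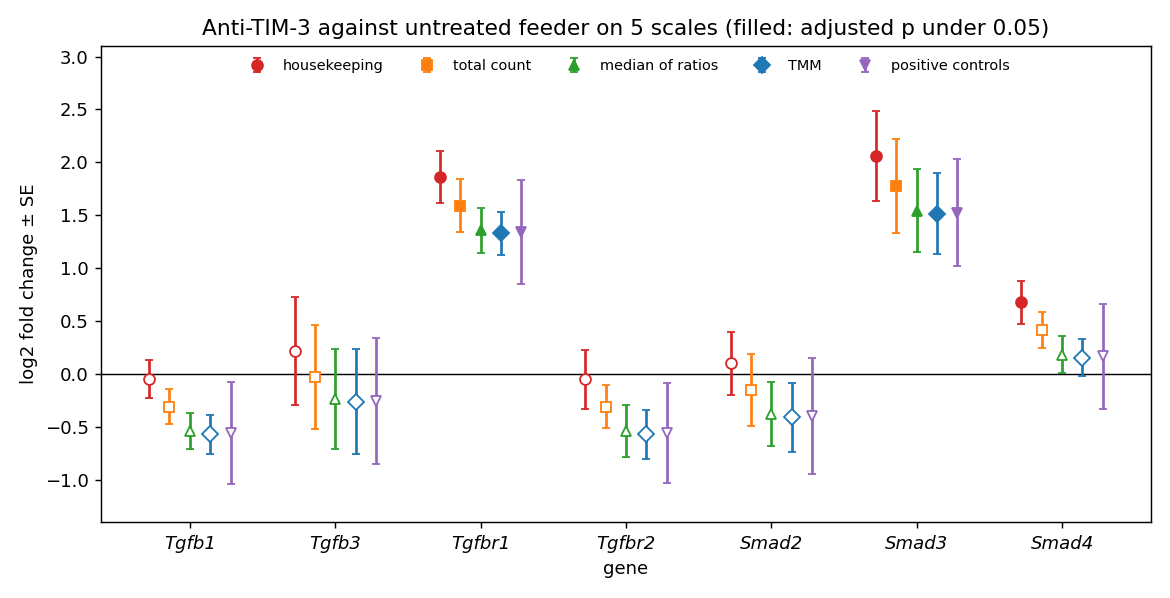
Log2 fold change with its standard error (vertical axis) of the 7 genes (horizontal axis) between anti-TIM-3 and untreated feeder libraries on 5 scales, shown by colour and symbol, with filled symbols for an adjusted p under 0.05. Tgfbr1 and Smad3 are filled on all 5 scales, and Smad4 on the housekeeping scale alone.

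Differences of log2 values between a pair of genes within a library do not depend on how the library is scaled. Their zero has no meaning, since probes differ in efficiency, and only changes between groups are read. For Tgfbr1 minus Tgfbr2 the difference was -1.98 and -1.31 in IL-15 replicates 1 and 3, -0.79 and -1.33 in untreated feeder replicates 2 and 3, and 0.83 and 0.87 in anti-TIM-3 replicates 1 and 2. The type I receptor transcript thus gained 1.91 on the log2 scale over the type II receptor transcript between untreated feeder and anti-TIM-3 libraries, more than the 0.54 between the untreated feeder libraries. Smad3 minus Smad2 was 0.071 and 0.92 in IL-15 replicates 1 and 3, 0.23 and 0.24 in untreated feeder replicates 2 and 3, and 1.57 and 2.81 in anti-TIM-3 replicates 1 and 2, a change of 1.95 from untreated feeder. Smad3 minus Smad4 changed by 1.38, from a mean of -1.63 to one of -0.25. In each of these 3 differences the untreated feeder and anti-TIM-3 groups did not overlap, and a two-sided exact permutation test gave p = 0.333 (0.333 after Benjamini-Hochberg adjustment over the 3), the smallest value that 2 libraries against 2 can give. The 3 pairs were chosen after the values were seen.

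**Figure D4:**
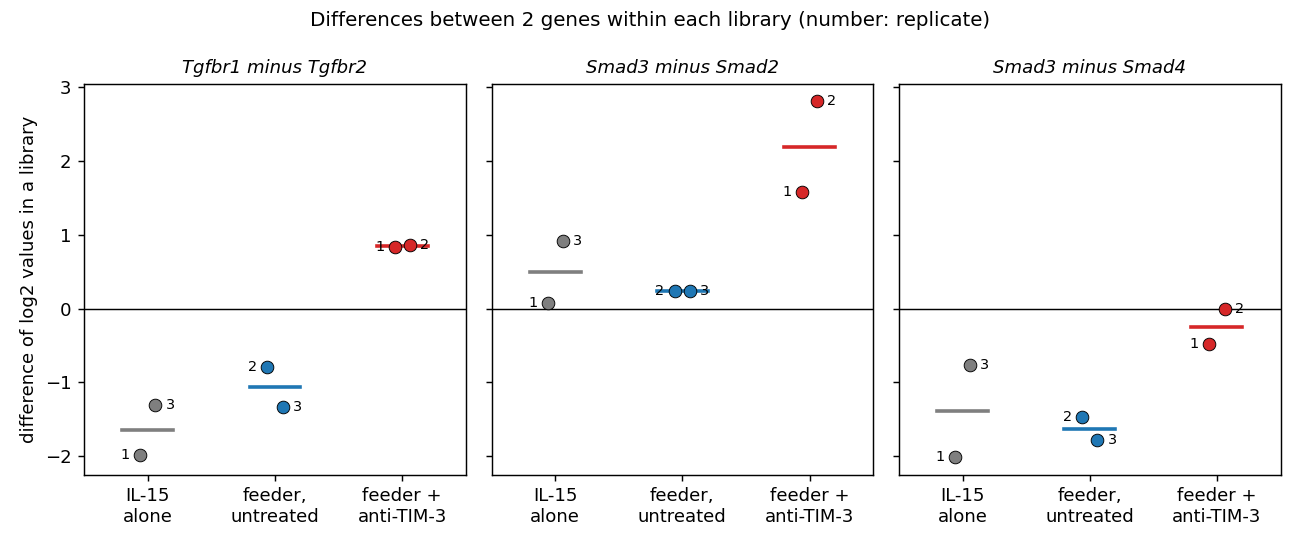
Difference of log2 normalised counts between a pair of genes (vertical axis) within each library, as points numbered by replicate and grouped by condition (horizontal axis), with lines at the group means. For Tgfbr1 minus Tgfbr2 both anti-TIM-3 libraries, at 0.83 and 0.87, lie above the 4 others.

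The sequences just upstream of the transcription starts are shown for Tgfbr1 and Smad3, which rose together, and for Tgfbr2, the receptor gene that did not pass. Each run is the 250 bases before the annotated start, read 5′ to 3′ on the gene's own strand from RefSeq (GRCm38.p6), at chr4:47352972-47353221 for Tgfbr1 on the forward strand, and at chr9:63757995-63758244 for Smad3 and chr9:116175364-116175613 for Tgfbr2, both on the reverse strand. Capitals mark a GC box (GGGCGG) or a Smad box (CAGAC), each searched on both strands.
Tgfbr1: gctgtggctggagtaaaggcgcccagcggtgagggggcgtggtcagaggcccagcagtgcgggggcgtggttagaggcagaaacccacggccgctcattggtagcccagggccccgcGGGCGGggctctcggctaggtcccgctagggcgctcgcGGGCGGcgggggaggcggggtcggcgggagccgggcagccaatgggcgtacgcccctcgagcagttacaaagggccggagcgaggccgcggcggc
Smad3: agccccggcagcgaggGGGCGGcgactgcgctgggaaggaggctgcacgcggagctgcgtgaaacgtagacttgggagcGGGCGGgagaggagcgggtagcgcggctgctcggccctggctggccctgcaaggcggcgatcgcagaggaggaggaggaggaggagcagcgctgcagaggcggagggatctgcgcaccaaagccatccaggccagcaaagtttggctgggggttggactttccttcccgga
Tgfbr2: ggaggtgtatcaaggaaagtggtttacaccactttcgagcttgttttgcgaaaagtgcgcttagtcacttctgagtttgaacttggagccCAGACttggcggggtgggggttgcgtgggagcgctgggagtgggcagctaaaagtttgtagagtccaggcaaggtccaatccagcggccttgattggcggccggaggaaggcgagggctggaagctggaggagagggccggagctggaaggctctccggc
The Tgfbr1 and Smad3 windows each held 2 GC boxes and no Smad box, and the Tgfbr2 window held 1 Smad box and no GC box. Among 32851 promoter windows of this length, 32.7% held a GC box and 42.2% a Smad box, and no marked motif overlapped another. None of the 3 windows held the Smad-binding palindrome GTCTAGAC (0.167% of all windows), the AP-1 site TGANTCA (6.75%), the ETS site CCGGAA (12.0%) or the RUNX site TGTGGT (14.05%). The share of G and C was 74.8% for Tgfbr1, 69.2% for Smad3 and 58.4% for Tgfbr2, against a median of 52.4% over all windows. These are matches of letters and no evidence of binding.

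The comparison of feeder-expanded with IL-15-expanded cells asks what the feeder line changed without antibody. None of the 7 genes passed in limma, beside 0.00% of all tested probes, and with voom weights 0 probes passed the same adjusted threshold. At an unadjusted p under 0.05 in limma on the housekeeping scale there were 39 of 430. The largest differences were 0.97 ± 0.51 on the log2 scale for Tgfb3 (limma adjusted p = 0.638) and 0.56 ± 0.25 for Tgfbr1. The 5 others lay between -0.17 for Smad3 and 0.092 for Smad2. For Tgfb1 the 95% interval of the log2 difference was -0.45 to 0.41, and for Tgfbr2 it was -0.70 to 0.65.

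Feeder cells with anti-TIM-3 were also set against IL-15 alone, a comparison that shares its anti-TIM-3 libraries with the one above. On the housekeeping scale Tgfbr1, Smad3 and Smad4 again rose and none of the 7 genes fell, where 44.0% of all tested probes rose and 6.98% fell. Tgfbr1 was 2.42 ± 0.25 higher on the log2 scale (limma adjusted p = 0.00214), Smad3 1.89 ± 0.43 (0.0132) and Smad4 0.75 ± 0.20 (0.0239). The call on Tgfbr1 passed on all 5 scales and without any single library, with log2 fold changes of 1.67 to 2.66. Smad3 passed on none of the 4 other scales (limma adjusted p from 0.0557 to 0.0904, log2 fold changes of 1.14 to 1.34) and not once replicate 2 of the anti-TIM-3 group was left out (log2 fold change of 1.53, limma adjusted p = 0.0639). Without IL-15 replicate 1 its log2 fold change was 1.33, and without IL-15 replicate 3 it was 2.45. Smad4 likewise passed on no other scale, where it was at 0.015 to 0.21, and lost its call without IL-15 replicate 1 (limma adjusted p = 0.0635), without IL-15 replicate 3 (0.0873), or with replicate 2 alone missing from the anti-TIM-3 group (0.106).

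Tgfb1 and Tgfbr2 were at -0.067 ± 0.18 and -0.077 ± 0.28 in that comparison and did not pass on the housekeeping scale. Relative to the median of all tested probes they were at -0.76 and -0.77. On other scales Tgfb1 fell, by 0.77 with TMM (limma adjusted p = 0.0238), by 0.60 with total count (0.0363) and by 0.74 with median of ratios (0.0234), and it was at -0.80 with positive controls and did not pass (limma adjusted p = 0.267). Tgfbr2 fell by 0.77 with TMM (limma adjusted p = 0.0427) and did not pass on the 3 remaining scales (0.0592 to 0.250). Of all tested probes, 17.7% fell and 18.1% rose with TMM, 12.6% and 17.2% with total count, 10.7% and 10.9% with positive controls, and 17.7% and 18.6% with median of ratios. Both genes were thus below 0 on all 5 scales, by far the least on the deposited one.

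The patterns most like those of Tgfbr1 and Smad3 over the 6 libraries were found by the root mean square difference between log2 values, each centred on its own mean, across 429 other tested probes. Nearest to Tgfbr1 were Hcst, encoding the adaptor DAP10 (0.17), the chemokine gene Ccl9 (0.19) and Relb, an NF-kB subunit gene (0.20), where the median over all probes was 0.82. Nearest to Smad3 were Tfeb, a transcription factor gene of lysosome formation (0.21), Irf1, an interferon regulatory factor gene (0.25), and Gbp5, a guanylate-binding protein gene (0.26), where the median was 0.83. Smad4 was nearest to Map2k4 (0.077), Selplg (0.081) and Cd84 (0.085), a kinase gene, a selectin ligand gene and an adhesion receptor gene, where the median was 0.40. Within the pathway Tgfbr1 and Smad3 were 0.38 apart, and Tgfb1 and Tgfbr2 0.17. All of these share the same 6 libraries and the same scale, so they are a description of likeness and nothing more.

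Other genes around the pathway were counted by lists, to be read against all tested probes under anti-TIM-3, of which 31.4% rose and 7.21% fell with a median of 0.47 on the housekeeping scale, and 12.3% rose and 11.6% fell with a median of -0.056 with TMM. Of 17 listed genes of the branch that runs from the receptors through MAP kinases rather than Smads, 11 were tested and 1 rose under anti-TIM-3: Map2k4, a stress kinase gene (log2 fold change of 0.68 ± 0.21, limma adjusted p = 0.0483), which passed on no other scale and was at 0.15 with TMM. Mapk11, a p38 kinase gene, was at 0.59 ± 0.40, and Map2k1, a kinase gene of the ERK cascade, at -0.54 ± 0.27, and neither passed. The median of that list was 0.32 on the log2 scale, and -0.19 with TMM, where Map2k1 fell and none rose. Of 12 tested genes of transcription factors and coactivators known to act with Smads, 3 rose and none fell (median 0.65). These were Ets1 (1.28 ± 0.23), Gata3 (1.20 ± 0.25) and Crebbp, encoding a histone acetyltransferase (1.07 ± 0.24). With TMM they were at 0.76, 0.67 and 0.54, where of these Ets1 alone passed and Jun, an AP-1 subunit gene, fell (list median 0.13).

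Genes known to respond to TGF-beta in lymphocytes gave no single direction. Again 31.4% of all tested probes rose and 7.21% fell, with a median of 0.47. Of 9 tested genes that TGF-beta is known to raise, 4 rose and none fell under anti-TIM-3, with a median of 1.31: Cxcr6, a chemokine receptor gene (2.26 ± 0.32 on the log2 scale), Tnfsf10, encoding the death ligand TRAIL (2.36 ± 0.36), Cd69, an early activation marker (1.31 ± 0.21), and Nt5e, encoding the ectoenzyme CD73 (1.54 ± 0.48). Ctla4, an inhibitory receptor gene of the same list, was at -2.60 ± 0.90 and did not pass, and Itga1, an integrin gene, was at -0.30 ± 0.28. Between anti-TIM-3 and IL-15 alone Ctla4 fell, at -2.91 ± 0.90 (limma adjusted p = 0.0371). In that comparison the list held 5 rises and 1 fall, where 44.0% of all tested probes rose and 6.98% fell. Of 15 tested NK cell genes that TGF-beta is known to lower, 3 rose and 4 fell (median 0.18). Klrg1, an inhibitory receptor gene (-3.42 ± 0.51), Prf1, encoding perforin (-2.41 ± 0.39), Tfrc, encoding the transferrin receptor (-1.63 ± 0.44), and Eomes, a lineage transcription factor gene (-0.72 ± 0.18), fell. Hcst (1.69 ± 0.25), Ncr1, encoding the activating receptor NKp46 (1.53 ± 0.35), and Tbx21, encoding T-bet (1.44 ± 0.25), rose. Cxcr6, Tnfsf10, Klrg1, Prf1 and Tfrc passed on all 4 other scales, Hcst, Tbx21 and Eomes on 3, Cd69 on 2, and Nt5e and Ncr1 on none. With TMM the list of raised genes held 2 rises and no fall (median 0.79), and the list of lowered genes 2 rises and 4 falls (median -0.34), where 12.3% of all tested probes rose and 11.6% fell. With positive controls the list of raised genes held 2 rises and 1 fall, and that of lowered genes 0 rises and 3 falls. On that scale 7.44% of all tested probes rose and 8.14% fell. These lists were drawn up with results of these data known and are no independent evidence.

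Of 14 listed genes that activate or present latent TGF-beta, 2 were in the table and 1 was tested, the integrin gene Itgb3 (-0.33 ± 0.29 log2 fold change, limma adjusted p = 0.391). Of the lists of coreceptors and inhibitors of the pathway (10 genes) and of other ligands and receptors of its superfamily (12 genes), 0 symbols were in the table, so none could be tested.

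The authors' deposited table of 1 comparison, between groups named only by number, gave log2 fold changes of 1.9 for Tgfbr1 (q = 0.0017), 2.1 for Smad3 (q = 0.011) and 0.68 for Smad4 (q = 0.023). For the 4 other genes the authors' deposited table gave values between -0.048 and 0.22, with q-values from 0.66 to 0.92. At 2 digits, 7 of 7 values equal the anti-TIM-3 differences computed here, although the authors' deposited table does not name its groups.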

How the data were processed

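NK cell RNA of 6 libraries in 3 groups of 2 was measured on a NanoString panel. Per the labels' protocols, NK cells were isolated again by magnetic separation before RNA extraction, and the labels describe quantitative PCR, whose values are not used here. The deposited table holds log2 values of 532 probes, and the authors' scaling, read from the values since no header states it, sets 20 housekeeping genes to 1 mean. The submitters' processing notes name limma alone, without a version. Whole counts were recovered from the smallest step of each library, within a tolerance of 0.01, and negative controls averaged 4.25 to 6.13 counts. Groups follow the labels for expansion method and treatment, while the growth text, the same for all samples, describes the feeder culture. A further 18 columns of values and 12 rows of quality values, named by instrument lane, were not used. The authors' deposited table of 1 comparison gives log2 fold changes, a test score, p-values and q-values.

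Endogenous and housekeeping probes with at least 20 counts in at least 2 libraries were tested (430, with 88 left out), and all 7 genes described passed that filter. limma 3.58.1 in R 4.3.3 was fitted to the log2 values as deposited (no pseudocount), with a variance trend, robust moderation and Benjamini-Hochberg adjustment at 0.05, and was tested on simulated data. Alternatives were 4 other scales (log2 CPM with a prior count of 2, or counts times the positive control factor), other filters and variance models, a replicate block, the 4 libraries of a comparison alone and each library left out. The 7 genes and all lists were chosen with earlier results of these data known. Named are the 7 genes, up to 3 genes of each of 7 pathway lists with the largest absolute log2 fold change under anti-TIM-3, and the 3 probes most like a gene that was called. Cd69, Nt5e, Itga1, Eomes, Tfrc, Ncr1, Tbx21, Jun and the markers given by name were chosen after their values were seen. Replicate numbers were not used to pair the libraries in the main fit, and whether they name the same mouse is not stated. Promoter windows came from RefSeq, and all 7 genes matched its annotation (GRCm38.p6).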

Additional observations from a re-analysis of the deposited data

How the results depend on the processing

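Limits: with 2 libraries a group the fit borrows its spread from all 6, the housekeeping scale moves the median of all probes, and Tgfb3 lies near background. Leaving out a library leaves 1 in its group, whose spread is assumed to be that of the other groups. The log2 fold changes of the 7 genes were recomputed 354 times, of which 281 kept their direction and side of the threshold, 30 lost the threshold, 4 passed it and 39 changed direction.

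With a minimum of 50 counts Tgfb3 was not tested. Under anti-TIM-3 the number of genes called was 3, and 0 to 2 with a library left out. The number of all probes called went from 166 to 103 with TMM, 100 with total count, 67 with positive controls, 102 with median of ratios and 61 with the replicate block (0 to 171 with a library left out, at 63 and 0 where replicate 2 or replicate 3 of the untreated feeder group was missing, and 43 where replicate 2 of the anti-TIM-3 group was). Tgfbr1 ran from 1.61 to 2.11 and Smad3 from 1.70 to 2.42 with a library left out. Smad4 was at 0.15 with TMM, 0.41 with total count, 0.17 with positive controls, 0.18 with median of ratios, and 0.68 both without the variance trend and with the 4 libraries compared alone (limma adjusted p = 0.0603 and 0.0556), and 0.56 to 0.80 with a library left out, none of which passed. The cause was not tested. Smad2 was at -0.41, -0.15, -0.39 and -0.38 and Tgfb3 at -0.26, -0.028, -0.25 and -0.23 with TMM, total count, positive controls and median of ratios. With negative controls subtracted, an alternative chosen after seeing the data, Tgfb3 was at -0.14. With a library left out Smad2 ran from -0.15 to 0.36, Tgfb1 from -0.12 to 0.029, Tgfb3 from -0.31 to 0.75 and Tgfbr2 from -0.32 to 0.22.

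In the feeder comparison, on the same 4 scales, Smad2 was at -0.082, -0.18, -0.13 and -0.084 and Smad4 at -0.10, -0.20, -0.15 and -0.10. With a library left out Smad2 ran from -0.045 to 0.23, Smad3 from -0.73 to 0.39, Smad4 from -0.048 to 0.19, Tgfb1 from -0.15 to 0.11 and Tgfbr2 from -0.30 to 0.24. All probes called were 0, with 1 under positive control scaling and 7 without IL-15 replicate 3.

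Against IL-15 alone 3 genes were called, 1 of them with positive controls and 1 to 3 with a library left out, and of all probes 219, 128 with total count, 93 with positive controls, 76 with the replicate block and 113 (without anti-TIM-3 replicate 2) to 199 with a library left out. On the same 4 scales Smad2 was at -0.49, -0.33, -0.52 and -0.46, Smad3 at 1.18, 1.34, 1.14 and 1.21 and Smad4 at 0.049, 0.21, 0.015 and 0.079. With a library left out Smad2 ran from -0.062 to 0.45, Smad3 from 1.33 to 2.45, Smad4 from 0.63 to 0.87, Tgfb1 from -0.20 to 0.066 and Tgfbr2 from -0.31 to 0.15.

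With the replicate block Tgfbr1 and Smad3 kept their calls (2.06 and 2.54 under anti-TIM-3, limma adjusted p = 0.0279 for both), Smad4 lost its calls (0.72 under anti-TIM-3 and 0.77 against IL-15 alone, limma adjusted p = 0.173 and 0.137), Tgfbr2 was at 0.012 under anti-TIM-3 and Tgfb1 at 0.046 in the feeder comparison. Deviations from the group means of same-numbered libraries had correlations over tested probes of 0.080, 0.038 and -0.41 for numbers 1, 2 and 3. With 2 libraries a group their deviations are equal and opposite, so these correlations cannot decide whether same-numbered libraries belong together. Any pair of groups shares 1 number, and 1 residual degree of freedom is left in the fit with the replicate block. The numbers are therefore not read as a pairing, and whether they name the same mouse is not stated.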
